A study of Ovis aries with 2 samples.

Results

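The genes of heme synthesis and erythroid identity followed here were 9, ALAS2, FECH, TMEM14C, AHSP, KLF1, GATA1, SLC4A1, HEMGN and GMPR, measured in single cells of sheep embryos. They were taken by gene symbol from 26478 features, and each symbol belonged to 1 feature. Embryos at embryonic day 16 of 2 sheep breeds (Ovis aries), Ujumqin sheep and Hulunbuir Short-tail sheep (Hulunbuir sheep below), were dissociated, pooled and sequenced as 1 single-cell library per breed. According to the paper, the ewes of both breeds were given progesterone sponges and the hormone PMSG before mating, and extraembryonic tissue was removed from the embryos. The labels named no treatment or allele for either group, and the breed was the only difference that they gave. With 1 pooled library per breed there were no replicates, so no test between breeds or between cell types was run and no p-value is given. Intervals below are exact 95% intervals (Poisson for levels and ratios, Clopper-Pearson binomial for shares) and cover counting error only.

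Heme is made in erythroid cells in a path that starts and ends in the mitochondrion. ALAS2, the erythroid form of 5-aminolevulinate synthase, makes its first intermediate, TMEM14C carries a late porphyrin intermediate into the mitochondrial matrix, and FECH (ferrochelatase) inserts the iron. AHSP holds free alpha globin until it is paired, GATA1 and KLF1 are transcription factors that drive the red cell program, and HEMGN (hemogen) is a nuclear protein of blood-forming cells. SLC4A1 (band 3) is the anion exchanger of the red cell membrane, and GMPR (guanosine monophosphate reductase) turns GMP into IMP in purine metabolism.

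The Ujumqin library held 17059 barcodes and 212933364 unique molecular identifiers (UMIs, counted RNA molecules), and the Hulunbuir library held 10709 barcodes and 131385353 UMIs. Cells had to show 200 genes or more and less than 10% of UMIs on mitochondrial genes, which left 14554 Ujumqin cells with a median of 9519 UMIs and 9583 Hulunbuir cells with a median of 11879. The libraries shared 61 barcodes. No cell type annotation was used, so classes were set per cell from marker genes, and none of the 9 genes was a marker. A cell was erythroid-gated when it had UMIs of at least 2 of 11 red cell markers (among them HBM, HBQ1, HBB, EPB42, RHAG, TRIM10, NFE2, GFI1B, BPGM and SLC25A37) and at least 1 such UMI per 10000. Cells of 9 other classes needed at least 3 markers of the class and a marker share of at least 4 times its mean in both libraries, and erythroid-gated cells were left out of them.

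Erythroid cells came almost entirely from Ujumqin sheep. The gate took 4060 of the 14554 Ujumqin cells, 27.9% (interval 27.2 to 28.6%), and they carried 43.7% of the UMIs of the kept cells. In Hulunbuir sheep it took 86 of 9583 cells, 0.897% (interval 0.718 to 1.11%), and 82 of these 86 had no gate marker other than HBQ1, BPGM and SLC25A37, against 455 of the 4060 Ujumqin cells. RHAG, a membrane glycoprotein gene of red cells, had 8.06 UMIs per 1000000 in the Ujumqin gated cells and 1.34 in the Hulunbuir ones (2 UMIs), and EPB42, which encodes a protein of the membrane skeleton, had 4.0 and 0, where a count of 0 allows up to 2.01. Both markers were low in the Hulunbuir gated cells, on few UMIs, and these are described as gated cells only. A gate without HBQ1, BPGM and SLC25A37, chosen after the data were seen, took 1360 Ujumqin cells and 1 Hulunbuir cell. The 10 most abundant features, 4 of them without a symbol, held 50.8% of the UMIs of the Ujumqin erythroid-gated cells, and the 4 without a symbol alone held 46.0%.

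In Ujumqin erythroid-gated cells the levels of the 9 genes spanned a wide range. Levels are given as CPM, the summed UMIs of the gene for every 1000000 UMIs that the cells of a class hold together. The kit counts each RNA molecule once at its 3' end whatever its length, so levels of different genes are set side by side on this scale, although they also depend on how well each 3' end is annotated. TMEM14C stood at 1658 CPM (interval 1649 to 1666, 151959 UMIs) and AHSP at 1155 CPM (interval 1148 to 1162). ALAS2 followed at 470 CPM (interval 465 to 474). The nuclear regulators were lower, with KLF1 at 134 CPM (interval 132 to 137), HEMGN at 85.7 CPM (interval 83.8 to 87.6) and GATA1 at 82.1 CPM (interval 80.2 to 84.0). HEMGN and GATA1 were neighbours whose intervals overlapped slightly, and all other neighbours in this order were apart beyond counting error. FECH had 42.9 CPM, GMPR 10.8 CPM and SLC4A1 6.35 CPM from 582 UMIs. The first enzyme of the path was thus read far more often than the last, while the porphyrin carrier was read most of all.

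**Figure D1:**
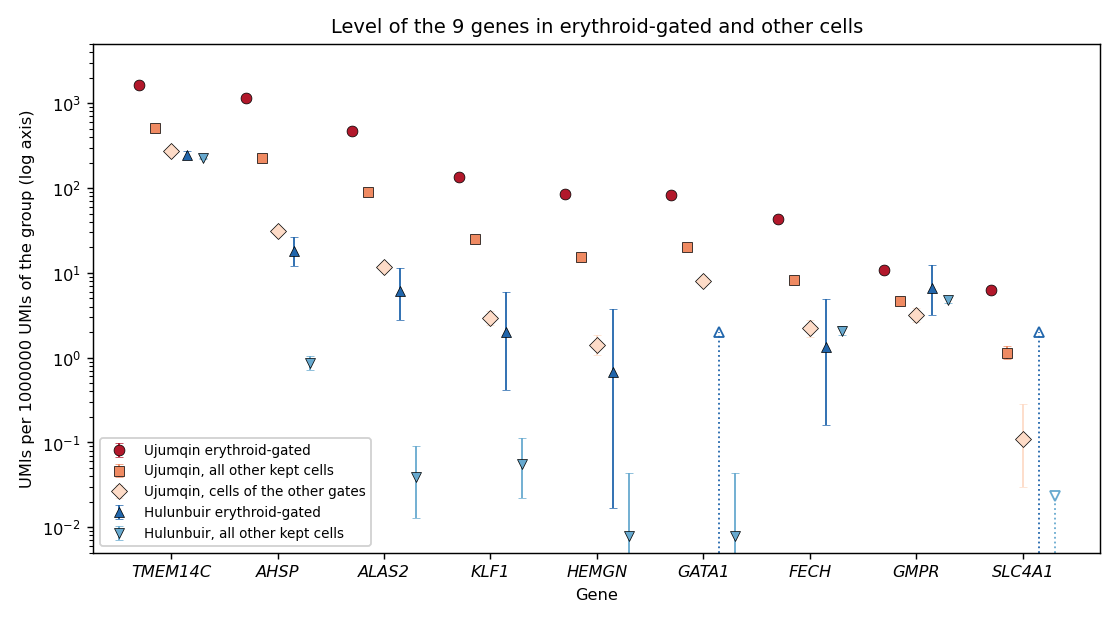
Level of each of the 9 genes (UMIs per 1000000 UMIs of the group, log axis) in 5 groups of cells, with exact 95% Poisson intervals that cover counting error only. Open symbols mark groups with 0 UMIs and stand at the level of 3 counts, the limit that a count of 0 allows. Ujumqin erythroid-gated cells have the highest value of the 5 groups for each gene (for GMPR within the interval of the Hulunbuir gated cells), and the Hulunbuir values for ALAS2, AHSP, KLF1, GATA1, HEMGN and SLC4A1 fall far below them, while TMEM14C and GMPR are present in all groups.

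Most single erythroid cells carried the abundant genes, and only a minority carried a UMI of the rare ones. TMEM14C was seen in 99.8% of the 4060 cells, AHSP in 98.7% and ALAS2 in 98.2%, with medians of 37, 25 and 10 UMIs per cell. KLF1 was seen in 89.1%, HEMGN in 79.3%, GATA1 in 79.1% and FECH in 57.0%, with medians of 3, 2, 2 and 1 UMIs. GMPR was seen in 21.1% and SLC4A1 in 13.0%. The spread of the abundant genes between cells was narrow. For TMEM14C the 10th percentile of cells was 1147 CPM, the median 1663 and the 90th percentile 2190, and for ALAS2 these values were 238, 461 and 727. Of the 4060 cells, 3942 had UMIs of at least 3 of the 6 genes ALAS2, AHSP, KLF1, GATA1, SLC4A1 and HEMGN.

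These shares depend on depth, so cells were also thinned to 1000 UMIs each, which left out 1 of the 4060 erythroid-gated cells and 207 of the 1319 Ujumqin cells of the other gates. Of these 207 cells, 163 passed the gate of extraembryonic (ExE) endoderm, which kept 144 cells. ALAS2 then had a UMI in 35.8% of erythroid-gated cells (interval 34.3 to 37.3%), AHSP in 67.4% and TMEM14C in 79.8%. In the Ujumqin cells of the other gates the shares were 2.52% for ALAS2, 5.58% for AHSP and 23.7% for TMEM14C. The median depths before thinning, over all cells of each side, were 21612.5 UMIs for the erythroid-gated cells and 21219 for the others. Single classes of the other side differed widely, with medians from 908 UMIs (ExE endoderm) to 34562 UMIs (endothelium). RNA free in the suspension was not measured. KLF1 was seen in 11.9% against 0.989%, HEMGN in 8.33% against 0.360% and GATA1 in 8.28% against 2.16%. Most of that GATA1 share lay in megakaryocyte-gated cells, and in the other gates without them GATA1 was seen in 6 of 1046 cells, 0.574% (interval 0.211 to 1.24%). The 2 intervals were apart for 7 of the 9 genes. They overlapped for the 2 rarest, SLC4A1 (0.591% against 0.0899%) and GMPR (1.16% against 0.360%). Such an overlap does not by itself show that the shares were alike. Thinned to 2000 UMIs they were apart for all 9.

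The genes were far higher in erythroid-gated cells than in cells of the other gates. Against all 10494 other kept Ujumqin cells, 7 of the 9 genes were at least 4-fold higher, where 1.07% of 12007 features were, and 0 were at least 4-fold lower, where 30.1% were. The ratios were 5.62 for HEMGN, 5.55 for SLC4A1, 5.36 for KLF1, 5.25 for FECH, 5.23 for ALAS2, 5.11 for AHSP and 4.07 for GATA1. TMEM14C reached 3.26 (interval 3.23 to 3.29) and GMPR 2.31 (interval 2.08 to 2.56). The median log2 ratio was 2.39 for the 9 genes and -1.15 over all features. That other side held cells with red cell RNA, however. Of its 10494 cells, 1294 had UMIs of at least 3 of the 6 genes above, and the 9175 cells that passed no gate carried ALAS2, AHSP, KLF1 and HEMGN at 25 to 27.1% of the erythroid-gated level. With the gate threshold doubled, or without haemoglobin genes in the gate, 0 of the 9 genes passed the 4-fold limit, and by construction the cells that then left the gate joined the other side. With the mean of the CPM of the cells in place of summed UMIs, 1 of 9 passed. The 10 most abundant features held 50.8% of the UMIs of erythroid-gated cells and 15% of those of the other cells. With these features left out of the totals, chosen after the data were seen, 8 of the 9 genes passed, TMEM14C among them at 5.64-fold, and the log2 ratio of ALAS2 moved from 2.39 to 3.17.

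Against the 1319 Ujumqin cells that passed another gate, a side chosen after the data were seen, 8 of the 9 genes were at least 4-fold higher, where 2.08% of 10816 features were, and 0 at least 4-fold lower, where 30.3% were. HEMGN stood at 85.7 against 1.43 CPM, a ratio of 60.1 (interval 45.8 to 80.5). SLC4A1 had a ratio of 57.9, but its interval ran from 22.5 to 213 because the other cells held only 4 UMIs. KLF1 was 45.8-fold higher (interval 37.9 to 55.9), ALAS2 39.9-fold (interval 36.2 to 43.9) and AHSP 37.1-fold (interval 35.0 to 39.4). FECH followed at 19.3-fold (interval 15.5 to 24.4). GATA1 had 10.2-fold (interval 9.07 to 11.5), TMEM14C 6.09-fold (interval 5.97 to 6.21) and GMPR 3.37-fold (interval 2.78 to 4.12), which missed the limit. The median log2 ratio was 5.21 for the 9 genes and -1.21 over all features. On this side the count stayed at 8 of 9 with both stricter gates named above. Of the 294 UMIs of GATA1 on the other side, 184 lay in the 66 megakaryocyte-gated cells. Without these cells, a side also chosen after the data were seen, GATA1 had 3.08 CPM in the other gates and was 26.6-fold higher in erythroid-gated cells (interval 22.1 to 32.5). GMPR then reached 4.06-fold (interval 3.29 to 5.07), so that 9 of 9 genes passed upward, where 2.36% of 10770 features did, and 0 downward, where 29.7% did.

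The order of the 8 Ujumqin classes with at least 50 cells started with erythroid-gated cells for all of the genes but GATA1 and GMPR. ALAS2 ran from 470 CPM in erythroid-gated cells to 91.9 CPM in megakaryocyte-gated, 43.5 CPM in cardiomyocyte-gated and 14.9 CPM in endothelium-gated cells. The first 3 of these were each apart from the next by interval. From endothelium down, through macrophage (12.4 CPM), ExE endoderm (8.96 CPM), mesenchyme (7.25 CPM) and gut cells (5.81 CPM), the intervals of neighbours overlapped. In the 639 mesenchyme-gated cells, which should lack red cell genes, HEMGN, KLF1, ALAS2 and AHSP stood at 1.14, 1.32, 1.54 and 1.65% of their erythroid-gated level. In the 129 endothelium-gated cells the same genes lay between 2.58 and 4.0%, and in the 90 gut-gated cells between 1.18 and 1.33%. In the 307 ExE endoderm-gated cells they lay between 1.91 and 2.85%. The 4 genes were spread more widely in cardiomyocyte-gated (0 to 22.3%), macrophage-gated (0 to 3.36%) and megakaryocyte-gated cells (3.75 to 19.6%). Whether these UMIs came from RNA free in the suspension was not tested.

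TMEM14C, FECH and GMPR lay at higher percentages. TMEM14C had between 221 CPM (ExE endoderm) and 400 CPM (megakaryocyte) in the other Ujumqin classes of at least 50 cells, 13.4 to 24.1% of its erythroid-gated level. The range was narrower in Hulunbuir sheep, where it ran from 208 CPM in mesenchyme to 227 CPM in paraxial mesoderm and somite cells, with intervals that overlapped between all neighbours. FECH, the last enzyme, lay at 4.56% of its erythroid-gated level in mesenchyme and 7.74% in endothelium. In the Hulunbuir kept cells outside the gate, which held almost no other red cell RNA, FECH still had 2.08 CPM from 264 UMIs and TMEM14C 224 CPM. GMPR had 13.6 CPM in the 57 cardiomyocyte-gated cells of Ujumqin sheep (5 UMIs, interval 4.42 to 31.7) and 12.7 CPM in the 59 of Hulunbuir sheep (10 UMIs, interval 6.07 to 23.3). Neither could be told apart from the 10.8 CPM of erythroid-gated cells.

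**Figure D2:**
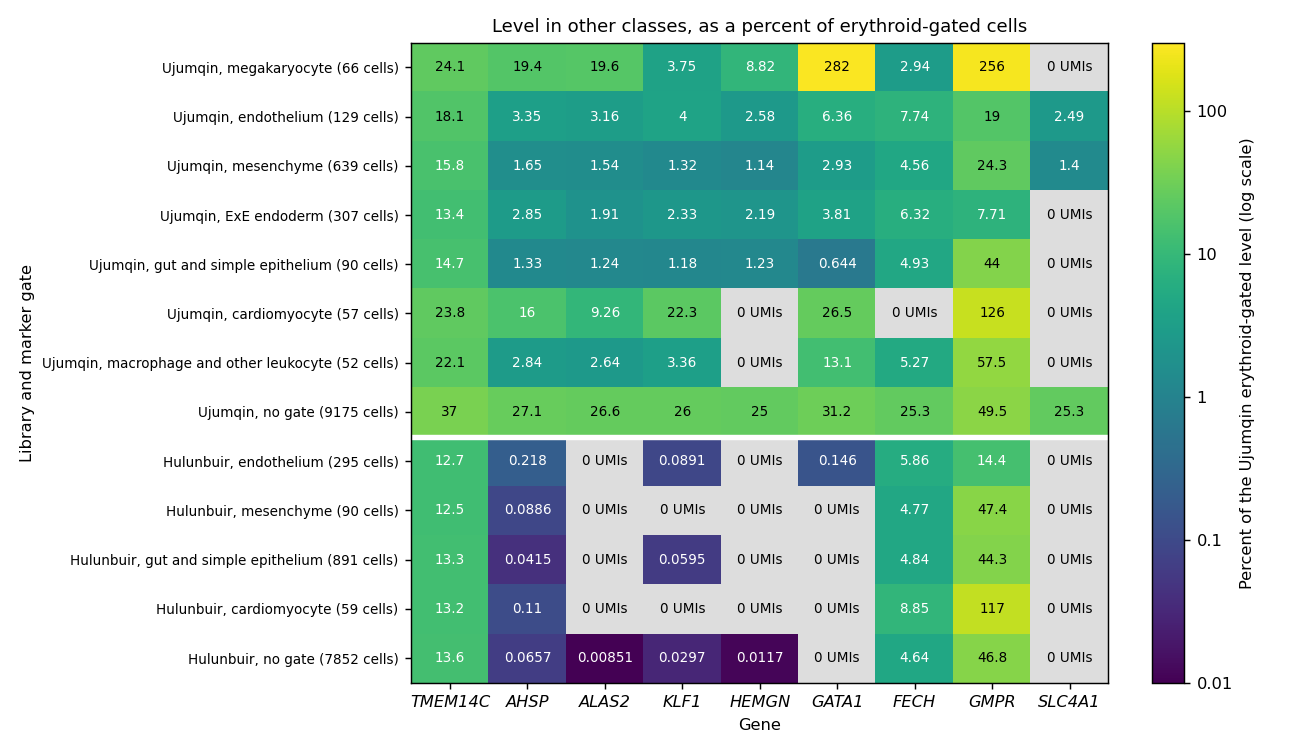
Level of each gene (columns) in cells of other marker gates and of no gate (rows, with the number of cells), in percent of its level in Ujumqin erythroid-gated cells, colored on a log scale. Grey cells had 0 UMIs. GATA1 and GMPR exceed 100% in the megakaryocyte-gated cells, TMEM14C is between 12.5 and 37.0% in every row, and ALAS2, HEMGN and SLC4A1 are at 0 UMIs in the 4 Hulunbuir gates shown.

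By CPM, GATA1 was highest in megakaryocyte-gated cells, not in erythroid-gated ones. GATA1 is known to act in both lineages. The 66 Ujumqin cells of this gate carried the platelet receptor genes GP1BB (2076 CPM) and CLEC1B (1502 CPM), while PPBP was at 0 UMIs. GATA1 stood at 232 CPM there (interval 199 to 268, 184 UMIs), 2.82-fold the erythroid-gated level (interval 2.42 to 3.27), and was seen in 92.4% of the cells. GMPR was also higher, at 27.7 CPM from 22 UMIs, a ratio of 2.56 (interval 1.60 to 3.90). No gene of the 9 passed the 4-fold limit upward, which 29.4% of 9015 features did, and 6 of the 9 were at least 4-fold lower, where 0.788% of features were. Over all features the median log2 ratio was 1.57, and over the 9 genes it was -2.35. GATA1 and GMPR lay below the median of all features, which was within their intervals. Their higher CPM thus did not stand out from that of a typical feature. KLF1, which favours the red cell fate over the platelet fate, had 5.03 CPM from 4 UMIs, HEMGN 7.55 CPM from 6 UMIs and FECH 1.26 CPM from 1 UMI. ALAS2 (91.9 CPM) and AHSP (224 CPM) kept 19.6 and 19.4% of the erythroid-gated level, and SLC4A1 had 0 UMIs, which allows up to 3.78 CPM.

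A further 26 Ujumqin cells passed both gates, and KLF1, ALAS2 and AHSP lay between the levels of the 2 classes in them. They had KLF1 at 73.5 CPM, ALAS2 at 264 CPM and AHSP at 739 CPM. GATA1 had 191 CPM (interval 152 to 236), above its erythroid-gated level, and could not be told apart from its megakaryocyte-gated level (interval 199 to 268). GMPR had 32.1 CPM (14 UMIs, interval 17.6 to 53.9), which could not be told apart from its megakaryocyte-gated level (interval 17.4 to 41.9). KLF1 and ALAS2 were thus at 54.7 and 56.2% of the erythroid-gated level, and GATA1 at 232%. Whether these barcodes held 2 cells each was not tested for them one by one. In all, Scrublet marked 159 of the 14554 kept Ujumqin cells (1.09%) as doublets, 74 of them erythroid-gated, and they were kept.

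In Hulunbuir sheep the red cell genes were nearly absent. Among 9583 kept cells, ALAS2 had 14 UMIs in 8 cells. The 86 gated cells had ALAS2 at 6.04 CPM from 9 UMIs, AHSP at 18.1 CPM from 27 UMIs, KLF1 at 2.01 CPM from 3 UMIs and HEMGN at 0.671 CPM from 1 UMI. GATA1 and SLC4A1 had 0 UMIs in them, which allows up to 2.01 CPM. Of the 4 genes with enough UMIs to compare (FECH, TMEM14C, AHSP and GMPR), AHSP was at least 4-fold higher in the gated cells than in the other Hulunbuir cells, where 1.15% of 12233 features were, and 0 of the 4 were at least 4-fold lower, where 0.531% were. Its level there was 1.57% of that in Ujumqin erythroid-gated cells. TMEM14C had 248 CPM (interval 223 to 274) in these gated cells and 224 CPM in the other Hulunbuir cells, so the gate did not set it apart.

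A few Hulunbuir cells stood out one by one. AHSP was seen in 89 Hulunbuir cells, and 84 of them had 1 UMI. The other 5 held 53 of its 137 UMIs, with 16, 15, 11, 6 and 5 UMIs. The cell with 15 UMIs of AHSP had 4 of ALAS2, 3 of KLF1 and 1 of HEMGN in 11305 UMIs, and 42.2% of its UMIs fell on the same 4 features without a symbol that led the Ujumqin erythroid-gated cells. Over all Hulunbuir kept cells these 4 features held 0.0142% of UMIs. The cell with 6 UMIs of AHSP had 42.8% on them, and those with 11, 5 and 16 had 24.1, 26.8 and 8.04%. Of the 5 cells, 3 were erythroid-gated (and held 26 of the 27 UMIs of AHSP and 9 of the 9 of ALAS2 in the 86 gated cells), 1 was endothelium-gated and 1 passed no gate, and no barcode of the 5 was in the Ujumqin library. At least 3 of the 6 genes named above were found together in 2 Hulunbuir cells.

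Other heme synthesis enzymes were higher in erythroid-gated cells too, apart from ALAS1. The lists that follow are compared between Ujumqin erythroid-gated cells and cells of the other gates, with the same 4-fold limit and the same 2.08% of features past it upward and 30.3% downward. The median log2 ratio over all features was -1.21. Of 5 further heme synthesis enzymes, 3 were at least 4-fold higher. ALAD had 626 CPM (6.44-fold), PPOX 87.3 CPM (6.38-fold) and UROS 9.32 CPM (6.80-fold). UROD had 264 CPM and a ratio of 3.61. ALAS1, the form of the first enzyme used outside red cells, went the other way, with 10.3 CPM in erythroid-gated cells and 38.7 CPM in the other cells. It stood at 59.5 CPM in the Hulunbuir kept cells, where ALAS2 had 0.109 CPM. The median log2 ratio of the list, ALAS2 and FECH included, was 2.69.

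**Figure D3:**
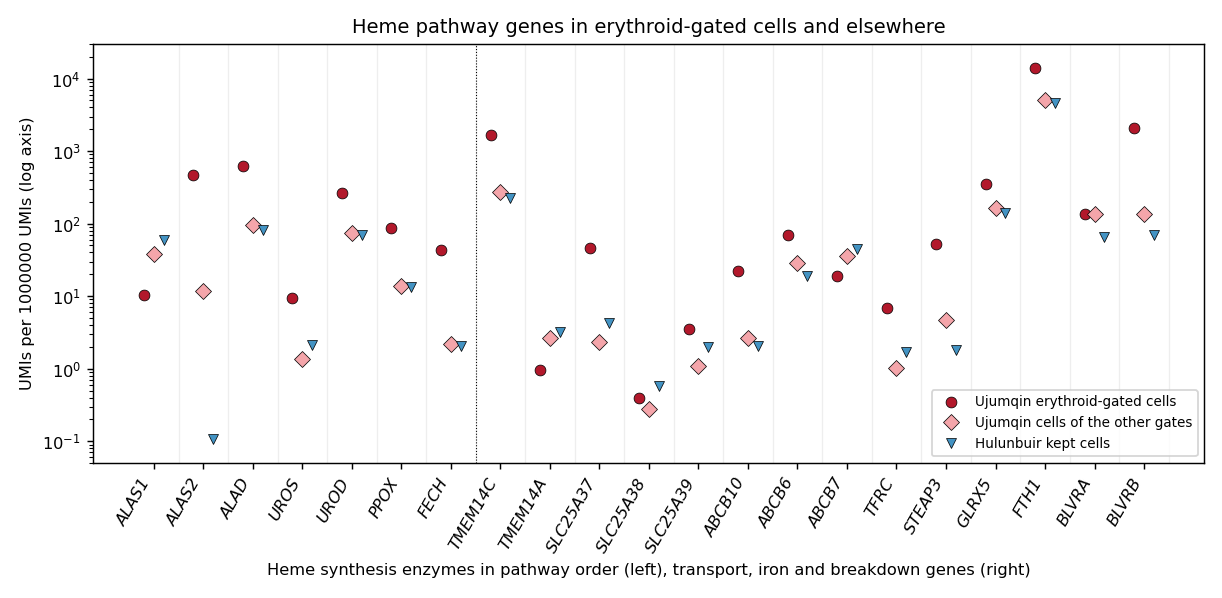
Level (UMIs per 1000000 UMIs, log axis) of 7 heme synthesis enzymes in the order of the pathway and of selected genes of porphyrin and iron transport and heme breakdown, in Ujumqin erythroid-gated cells, Ujumqin cells of the other gates and Hulunbuir kept cells. Every enzyme plotted after ALAS1 is higher in the erythroid-gated cells, and ALAS1 is lower there (10.3 against 38.7).

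Of 18 further genes of mitochondrial and iron transport, 4 were at least 4-fold higher and 0 at least 4-fold lower, and the list's median log2 ratio was 0.52. STEAP3, the ferrireductase of the transferrin cycle, had 51.8 CPM (11.1-fold), ABCB10, a mitochondrial transporter of erythroid cells, 22.1 CPM (8.40-fold), and TFRC, the transferrin receptor, 6.87 CPM (6.78-fold). SLC25A37 (mitoferrin) also passed at 46.4 CPM, but it was a gate marker. FTH1, the ferritin heavy chain, was the most abundant at 13948 CPM with a ratio of 2.75, and TMEM14A, a relative of TMEM14C, had 0.960 CPM and a ratio of 0.361. Of 9 genes of heme sensing, export and breakdown, 1 passed upward, BLVRB (2095 CPM, 15.4-fold), which encodes biliverdin reductase B. HMOX2 and PGRMC1 were at least 4-fold lower.

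Red cell membrane and enzyme genes lay above the limit in 7 of 11 and 8 of 14 cases. Of 11 membrane and skeleton genes other than SLC4A1, 7 were at least 4-fold higher and 1 (STOM) at least 4-fold lower, although RHAG and EPB42 were gate markers. ANK1, which anchors band 3 to spectrin, had 24.5 CPM (16.0-fold) and SPTB, beta spectrin, 6.44 CPM (33.5-fold), both above the 6.35 CPM of SLC4A1. Of 14 red cell enzymes and late genes other than AHSP, 8 passed upward and KIT downward, with the peroxidases PRDX2 at 5141 CPM (7.92-fold) and GPX1 at 2697 CPM (6.88-fold) far above the rest. BPGM and TRIM10 of that list were gate markers. Of 15 transcription factors other than KLF1, HEMGN and GATA1, 4 passed upward (NFE2, IKZF1, TAL1 and GFI1B, of which NFE2 and GFI1B were gate markers) and SOX6 and NFE2L2 downward. TAL1 had 0.971 CPM and IKZF1 1.46 CPM, so they were read rarely.

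The other genes of the GMPR pathway did not pass the limit upward. Of 12 further genes of purine nucleotide interconversion, 0 were at least 4-fold higher and 1, AMPD3, was at least 4-fold lower. The list's median log2 ratio was -0.64, and that over all features was -1.21. IMPDH2, which works against GMPR in the step between IMP and GMP, had 114 CPM in erythroid-gated cells and 239 CPM in the other cells. Its ratio of 0.477 (log2 ratio -1.07) lay near the median of all features. GMPS had 81.6 CPM (0.828) and ADSL 69.5 CPM (0.868). ADA reached 21.2 CPM and a ratio of 3.73, the only ratio of the list above that of GMPR. Of 4 metallothionein genes that could be compared, 0 were at least 4-fold higher and MT1A and MT3 were lower.

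Within the Ujumqin erythroid-gated cells, the level of each of the 9 genes was followed over depth. The spread over bins was not computed for the other features, so how usual it is was not tested. The 4060 cells were put into 10 bins of 406 by total UMIs, with medians from 9962.5 to 36381 UMIs. From the lowest to the highest bin value, the level varied 1.15-fold for ALAS2, 1.16-fold for TMEM14C, 1.20-fold for AHSP, 1.23-fold for KLF1, 1.30-fold for HEMGN and 1.38-fold for FECH. ALAS2 lay between 424 CPM in the deepest bin and 487 CPM in bin 7, and TMEM14C between 1507 CPM in the shallowest and 1748 CPM in bin 5. FECH was lowest in the shallowest bin (34.5 CPM) and highest in bin 6 (47.6 CPM). SLC4A1 varied 1.56-fold, from 4.85 to 7.56 CPM, on 25 to 108 UMIs in the bins at the ends, GATA1 1.54-fold and GMPR 2.11-fold.

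GATA1 and GMPR were lower in the deepest than in the shallowest bin. Between the deepest and the shallowest bin, 0 of the 9 genes were at least 1.5-fold higher, where 12.9% of 6850 features were, and 2 were at least 1.5-fold lower, where 13.6% were. GATA1 had 70.2 CPM in the deepest bin and 108 CPM in the shallowest, a ratio of 0.651 (interval 0.581 to 0.730). GMPR had 7.76 and 16.4 CPM, a ratio of 0.474 (interval 0.347 to 0.654). The other 7 ratios lay between 0.845 (HEMGN) and 1.11 (FECH), and the median log2 ratio was 0.02 for the 9 genes and 0.04 over all features. Markers of another class moved with this difference. The summed level of 7 megakaryocyte markers, among which PPBP was at 0, was 428 CPM in the shallowest bin and 4.25 to 44.3 CPM in the other 9, and 11 cells of the shallowest bin also passed the megakaryocyte gate. The shallowest bin also had macrophage markers at 81.2 CPM (at most 17.3 in the other bins), cardiomyocyte markers at 70.2 CPM (at most 26.2) and a mitochondrial share of 2.82% (1.93 to 2.13% in the others), and the part of these in the difference was not tested. With the 421 erythroid-gated cells that had a UMI of a megakaryocyte marker removed, an alternative chosen after the data were seen, the log2 ratio moved from -0.62 to -0.28 for GATA1 and from -1.08 to -0.48 for GMPR, and 0 of 9 genes passed. Against the second shallowest bin 0 of 9 passed as well, where 35.3% of features were higher and 2.2% lower, and the ratios were 0.855 for GATA1 and 0.800 for GMPR. In the deepest bin ExE endoderm markers summed to 1303 CPM and mesenchyme markers to 701 CPM, against at most 384 and 129 CPM in the other bins, and their part in the levels of that bin was not tested.

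**Figure D4:**
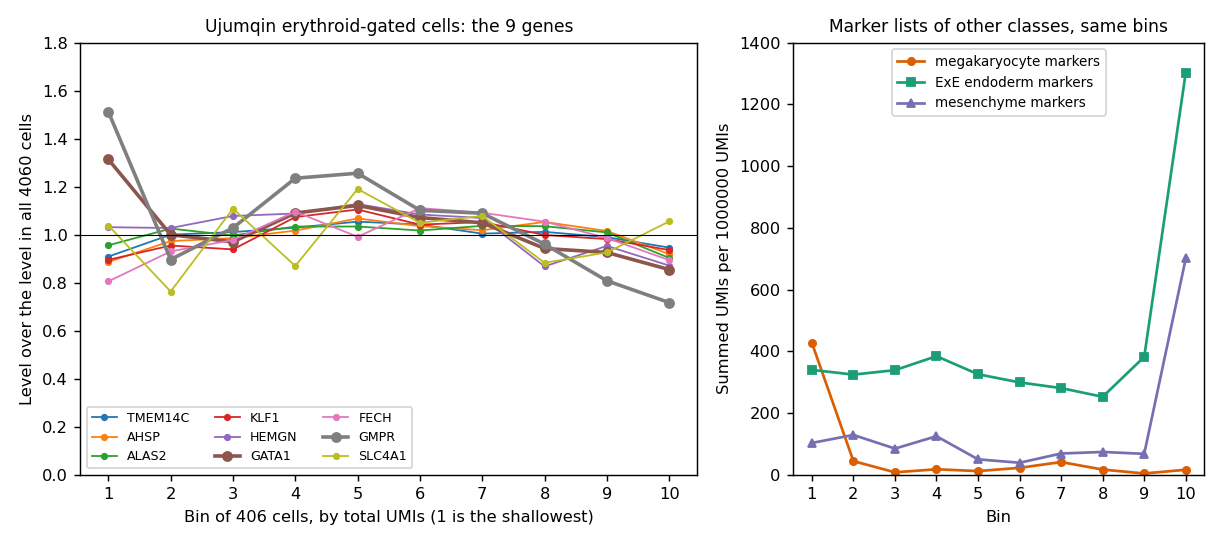
Left, level of each gene in 10 bins of 406 Ujumqin erythroid-gated cells ordered by total UMIs, over its level in all 4060 cells. Right, summed level of the markers of 3 other classes in the same bins (UMIs per 1000000 UMIs). GMPR and GATA1 are highest in the shallowest bin, where megakaryocyte markers reach 428, and the other 7 lines lie between 0.763 and 1.19, both values of SLC4A1.

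Other axes through the same cells moved the 9 genes less than 1.5-fold. Cells were put into 5 groups by their share of metallothionein UMIs, and between the top and the bottom group 0 of 9 genes passed the limit, where 2.11% of 7265 features were higher and 22.4% lower. AHSP went from 1267 CPM in the bottom group to 1049 CPM in the top, with each group below the one before, and ALAS2 from 490 to 444 CPM, while HEMGN was 84.5 and 91.4 CPM. Between the top and bottom of 5 groups by ribosomal protein share, 0 of 9 passed the limit, where 55.5% of features were higher and 1.32% lower. By mitochondrial share 0 of 9 passed, where 51% were higher and 0.785% lower, and by the number of genes in 5000 UMIs 0 of 9 passed, where 82.1% were higher and 0.399% lower. Sorting cells by the number of genes raises most features in the top group by construction, so nothing is read from that last contrast. Over 4004 cells thinned to 5000 UMIs, the 36 pairwise Pearson correlations ran from -0.02 to 0.14 with a median of 0.01, and the highest was that of TMEM14C and AHSP. At that depth 6 of the 9 genes had a mean under 1 UMI per cell, from 0.0332 for SLC4A1 to 0.674 for KLF1, where counting noise alone keeps correlations low, and nothing is read from them.

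The genes whose pattern was most like that of the 9 were found over 15 classes of at least 50 cells in both libraries, as a description. The likeness is the Pearson correlation with the mean standardized log2(CPM + 1) of the 9 genes, among 765 genes of at least 50 CPM outside the lists. The classes share libraries, and only 1 of the 15 is the Ujumqin erythroid gate. NUCB2 came first (0.926, 639 CPM in erythroid-gated cells), then MOSPD3 (0.877), FHL2 (0.871), HEBP1 (0.871, 581 CPM), which encodes a heme-binding protein, and TSPO (0.822, 856 CPM), a porphyrin-binding protein of the outer mitochondrial membrane. ADIRF, PINK1, FBXO9, TXNRD2 and RGS10 completed the 10, with correlations from 0.820 to 0.697. Of the 9 genes themselves, TMEM14C was closest to their mean (0.975) and GMPR farthest (0.494). Each of the 9 is part of that mean, which raises its value, so these are not compared with the values of the other genes. Over the 10 depth bins, which share one library and depth order, GADD45A was among the 3 genes most like ALAS2, FECH, TMEM14C and AHSP, with correlations from 0.773 to 0.897. SIVA1 was most like KLF1 (0.802), FHL2 most like HEMGN (0.830) and TSR3 most like SLC4A1 (0.880). ANAPC11 (0.941) and MRPL41 (0.937) were most like GATA1 and GMPR. These were the highest values picked from many candidate genes over only 10 points. Such a search returns high correlations among unrelated genes too, so no shared regulation is read from them.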

How the data were processed

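The deposited files hold, per the file headers, whole-number counts of UMIs per feature and barcode for 1 pooled library per breed. The authors made these counts with Cell Ranger (3.1.0 in the submitters' processing notes, 5.0.0 in the file headers) on a Rambouillet sheep assembly, and did not normalize them. From the counts, barcodes were filtered, gated by markers and summed per class as described above (Python 3.11.15, numpy 2.4.6). A feature was compared where both sides together had at least 20 UMIs, and a ratio with a side at 0 was taken against 3 counts and read as a bound. Doublets were scored with Scrublet and kept. Of the 9 genes, 8 matched a symbol in the RefSeq table. No sequence or coordinate is printed. Some list and marker genes are not reported here, and such genes were left out of the list counts. The 9 genes, marker lists and gene lists were chosen with earlier results of these data known. Genes were named by a rule: the 9 genes, the listed genes as counts with the most abundant as examples, and the genes most alike. Listed genes named beyond these examples, such as ALAS1, STEAP3, ABCB10, TFRC, TMEM14A, SPTB and TAL1, were chosen after their values were seen. The fold calls were tested on simulated counts, and the thinning was checked on cells of the data. The gates, bins, axes and correlations were not tested in this way. Alternatives covered the filter, gate, total, doublets, fold limit, bins and thinning depth.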

Additional observations from a re-analysis of the deposited data

Results flagged for a closer look

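Barcodes removed by the filter on genes and mitochondrial UMIs entered no comparison above, but they held the 9 genes above the limit that a count of 0 allows. In Ujumqin sheep the 2505 removed barcodes had a summed level of 1312 CPM for the 9 genes (interval 1274 to 1352, where a count of 0 allows 0.894), against 2100 CPM in the kept cells, with AHSP at 415 CPM and ALAS2 at 134 CPM. In Hulunbuir sheep the 1126 removed barcodes had 171 CPM (a count of 0 allows 1.1), against 233 CPM in the kept cells, of which TMEM14C made up 165 CPM, and ALAS2, KLF1, GATA1, SLC4A1 and HEMGN had 0 UMIs.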

How the results depend on the processing

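The number of erythroid-gated cells depended on the gate. Hulunbuir sheep had 160 such cells with the gate threshold halved, 12 with it doubled, 14 without haemoglobin genes and 1 without HBQ1, BPGM and SLC25A37, and Ujumqin sheep had 2112 and 1360 under the last 2 settings. Against all other kept cells, 0 of the 9 genes passed the 4-fold limit with the threshold doubled, without haemoglobin genes and without HBQ1, BPGM and SLC25A37. By construction the cells that left the gate joined the other side in these settings. With the mean of the CPM of the cells, 1 passed. The cause of these lower counts was not tested. The ratios of the 9 genes stayed above 1 under all alternatives. Between the deepest and the shallowest bin, 1 gene passed with the mean of the CPM, with cells of another gate removed, with Scrublet-marked cells removed and with a limit of 2, and 0 passed with 5 bins, with cells with a megakaryocyte marker removed and against the second shallowest bin. The last 2 settings, the gate without HBQ1, BPGM and SLC25A37, the total without the 10 most abundant features and the other gates (with and without megakaryocyte-gated cells) as the other side were added after seeing the data. No paired analysis was possible because each breed has 1 library and no test was run. Depth limits SLC4A1 and GMPR most, with 582 and 991 UMIs in 4060 cells.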
